A study of Rattus norvegicus with 38 samples.

Results

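The genes described here are the collagens and the stellate cell matrix genes of rat liver, 57 of the 31038 gene names in the deposited count table. They were chosen by name: every symbol of the form Col, number, a, number (44 collagen chain genes), plus 13 genes of the matrix, its crosslinking and the stellate cell, namely Fn1, Dcn, Lum, Sparc, Reln, Lox, Loxl1, Loxl2, Acta2, Des, Vim, Pdgfrb and Tgfb1. The values come from RNA sequencing of 38 livers of Sprague-Dawley rats, collected on day 28. Extracts known only as EF, PF and RD were given by gavage, EF and PF at 2.5 g/kg and RD at 200 mg/kg, and lipopolysaccharide (LPS), a bacterial outer membrane component and strong trigger of inflammation, was given by intraperitoneal injection. The groups without LPS were control (n = 5), EF (n = 5), EF_PF, which received EF and PF (n = 5), and EF_RD, which received EF and RD (n = 4). The matching groups with LPS were LPS alone (n = 5), LPS_EF (n = 5), LPS_EF_RD (n = 5) and LPS_EF_PF (n = 4). No group received PF or RD without EF. Sources used here do not give the dose of LPS, how long before collection it was injected, or the age and sex of the rats. Libraries are named by group and by the number in their titles, and the design text describes them as biological replicates.

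Collagens are trimeric proteins. Fibrillar types such as I, III and V make up the fibres of the liver capsule, portal tracts and scars, type IV makes the sheet of basement membranes, type VI makes beaded filaments, and fibril-associated types such as XII and XIV bind to the surface of fibres. Hepatic stellate cells, the pericytes of the sinusoid, are the main source of fibrillar collagen in injured liver, where they respond to the growth factors TGF-beta 1 and PDGF and take on alpha smooth muscle actin; endothelial cells, portal fibroblasts and hepatocytes also make matrix.

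The tissue label is liver and the cell type label hepatocyte, and no step separating hepatocytes is described. The libraries held markers of several liver cell types besides hepatocytes. The summed level of 15 hepatocyte markers ran from 101390 to 177730 CPM (read pairs scaled to the same library total) over the groups, 15 endothelial markers from 237 to 789 CPM, 15 Kupffer cell and macrophage markers from 321 to 1609 CPM, and 13 quiescent stellate cell markers from 165 to 237 CPM. In such bulk tissue, fewer cells of a type and less RNA per cell cannot be told apart. Libraries held 19716622 to 35835012 counted read pairs. A few libraries stood apart. The library EF_RD 1 held 4627 CPM of 15 skeletal muscle markers, 394 CPM of 7 adipocyte markers and 124 CPM of 14 exocrine pancreas markers. LPS 3 held 456 CPM of the muscle markers and 1939 CPM of the pancreas markers, and control 5 held 3346 CPM of the pancreas markers. In the other 35 libraries these sums were at most 2.41, 106 and 21.5 CPM for muscle, adipocyte and pancreas markers. LPS_EF 7 and LPS_EF_RD 6 held 65.4 and 80.4 CPM of 15 neutrophil and monocyte markers, against at least 154 CPM in the other LPS-treated livers. EF 1 held 93.6 CPM of the same markers, the highest of the livers without LPS. Where leaving out 1 of these libraries ends or gives a call, the value without it is given for some of the genes described below. Not every such change is given. In these fits, single genes were followed only where the naming rule, stated with the processing, took them in that comparison. Col5a2 and Col6a2 with RD, for example, were not followed.

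Promoter sequence was available for 43 of the 57 genes in the RefSeq table (build GRCr8), taken as the 250 bases before each annotated start. Col4a1 and Col4a2, whose chains assemble into the same collagen IV molecule, start head to head on chromosome 16. The whole stretch between their annotated starts, chr16:84885521-84885596 in GRCr8, is shown because the pair moved together; it is written on the strand of Col4a1. Capitals here and in the next sequences mark letters of any of 5 searched motifs on either strand. They were the GC box, which reads GGGCGG, and the box that reads CCAAT. The others were the TATA box, searched as the letters TATAAA, a SMAD element that reads CAGACA, and an AP-1 site that reads TGACTCA. No motif contains another.

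Col4a1/Col4a2: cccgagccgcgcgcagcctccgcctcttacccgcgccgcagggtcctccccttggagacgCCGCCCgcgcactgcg

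The 250 bases before Col8a1 (chr11:56246532-56246781, plus strand), Loxl1 (chr8:67612225-67612474, minus strand) and Sparc (chr10:40038817-40039066, minus strand) are shown because these were the promoters with CAGACA among the genes that rose after LPS in each of 4 comparisons described below. Of those 11 genes, 8 had a promoter available, and 3 of the 8 held CAGACA. That share was not tested.

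Col8a1: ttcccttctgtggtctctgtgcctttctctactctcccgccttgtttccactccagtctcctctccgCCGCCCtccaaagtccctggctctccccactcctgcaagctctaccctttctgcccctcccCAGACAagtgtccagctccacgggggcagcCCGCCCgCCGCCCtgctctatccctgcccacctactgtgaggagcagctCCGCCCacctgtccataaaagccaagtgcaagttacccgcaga

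Loxl1: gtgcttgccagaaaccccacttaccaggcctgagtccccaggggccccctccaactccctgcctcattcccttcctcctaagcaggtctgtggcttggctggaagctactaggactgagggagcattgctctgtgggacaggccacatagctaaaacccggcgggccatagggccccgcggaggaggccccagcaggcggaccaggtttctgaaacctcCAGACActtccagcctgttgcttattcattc

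Sparc: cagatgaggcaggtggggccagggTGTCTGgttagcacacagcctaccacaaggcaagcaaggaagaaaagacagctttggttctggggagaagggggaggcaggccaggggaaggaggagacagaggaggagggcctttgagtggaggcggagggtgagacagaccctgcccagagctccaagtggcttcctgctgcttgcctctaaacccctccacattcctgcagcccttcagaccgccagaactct

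The stretch before Acta2 (chr1:241172504-241172753, minus strand), the gene of alpha smooth muscle actin, also holds CAGACA. It is shown as a stellate cell gene that was not called in any of those comparisons with all livers in the fit.

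Acta2: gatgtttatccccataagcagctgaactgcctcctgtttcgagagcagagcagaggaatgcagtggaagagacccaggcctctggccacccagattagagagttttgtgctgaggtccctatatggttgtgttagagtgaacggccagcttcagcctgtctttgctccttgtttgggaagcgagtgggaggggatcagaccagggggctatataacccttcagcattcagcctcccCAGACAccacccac

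The GC box was present before 22 of the 43 members (51.2%) and in 30.5% of all 33469 promoters of the same length. Members were counted as genes, with a match in any promoter listed for the gene, and all promoters as single entries. The 2 kinds of share are therefore not strictly alike. CAGACA was present in 8 of 43 (18.6%) against 17.2% of all promoters, CCAAT in 30.2% against 34.0%, TATAAA in 11.6% against 12.9%, and TGACTCA in 2.33% against 4.05%. These are matches of letters only. Apart from the GC box, the members' shares were within 4 percentage points of those of all promoters, and the difference in the GC box was not tested.

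Levels between genes are compared per length, in TPM (scaled for gene length and library total), as the median over 38 libraries. Fn1, which encodes fibronectin, also made and secreted by hepatocytes, had the highest level (820 TPM, range 459 to 1296). Col18a1, a basement membrane collagen whose end fragment is endostatin, had 269 TPM, Col3a1 159 TPM and Sparc, a matrix glycoprotein that binds collagen, 151 TPM. Vim, the mesenchymal intermediate filament protein vimentin, had 53.8 TPM, Col6a1 34.8 TPM and Col4a1 22.7 TPM.

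Col1a1, the alpha 1 chain of type I collagen, was at 8.65 TPM, well under Col3a1. Col1a2, which encodes the alpha 2 chain of the same trimer, was at only 0.204 TPM (range 0.031 to 0.636), with 533 read pairs over all libraries against 35114 for Col1a1. No other gene name of the count table overlaps the exons of Col1a2 (chr4:31534225-31569152 in rn6). The cause of the low count was not tested, and values of Col1a2 rest on few reads.

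**Figure D1:**
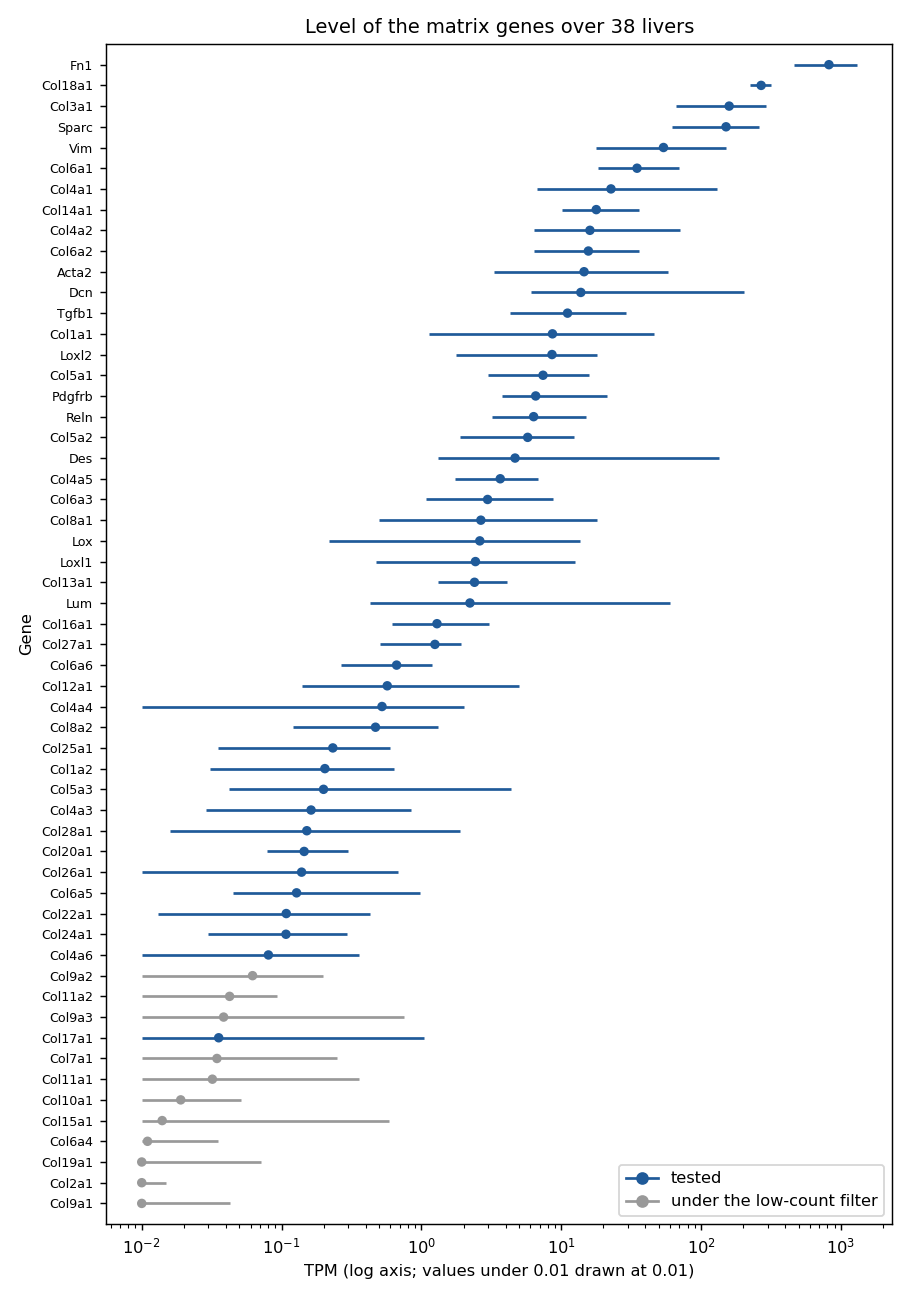
Median (point) and range (line) of TPM over 38 livers on a log axis for the 56 genes with any reads, blue for genes that passed the low-count filter and grey for the others. Fn1 is highest with a median of 820 TPM, and Col1a2 lies at 0.204 TPM.

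The low-count filter kept 14786 genes and 45 of the 57 members, 32 collagens and all 13 other genes. The 12 that did not pass were Col2a1, Col6a4, Col7a1, Col9a1, Col9a2, Col9a3, Col10a1, Col11a1, Col11a2, Col15a1, Col19a1 and Col23a1, and Col23a1 had no read in any library. Genes were tested with edgeR's quasi-likelihood test, and a gene was called at a Benjamini-Hochberg adjusted p under 0.05 over the 14786 genes. Fold changes below are log2 values with their standard errors.

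LPS was followed by higher levels of many of these genes in all 4 settings, without extract and with each extract. The 4 comparisons use separate livers. In LPS against control, 18 members were higher and 1 lower of 45; of all genes tested 36.8% were called, 18.6% higher and 18.1% lower. In LPS_EF against EF, 19 were higher and 1 lower (all genes 29.1%, of which 14.6% of genes higher and 14.5% lower). In LPS_EF_PF against EF_PF, 23 were higher and 4 lower (all genes 36.5%, with 19.2% higher and 17.3% lower). In LPS_EF_RD against EF_RD, 11 were higher and 3 lower (all genes 23.5%, with 12.8% higher and 10.7% lower). The share of members called higher was above the share of all genes in each comparison, while the share called lower was below it.

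The median log2 fold change of the 45 members was 0.56, 0.73, 1.22 and 0.11 in that order, against medians between -0.03 and 0.00 for all genes. With no filter on low counts, 17, 16, 22 and 10 of the 56 members with reads were called higher and 0, 0, 3 and 1 lower, where 2587, 1907, 2702 and 1671 of all genes were called higher. Groups did not overlap, with every LPS-treated liver above every other liver, for 15, 7, 27 and 4 of the 45 members in the same order. Of all genes, 12.5%, 4.99%, 19.5% and 8.1% did so. By this measure the members with RD were near the share of all genes. The smaller median with RD went with the library EF_RD 1: leaving it out with LPS 3 gave 20 members higher and 1 lower and a median of 0.73. The number of all genes called in that fit is not given here. Whether the rise in the count is particular to the members is therefore not shown.

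**Figure D2:**
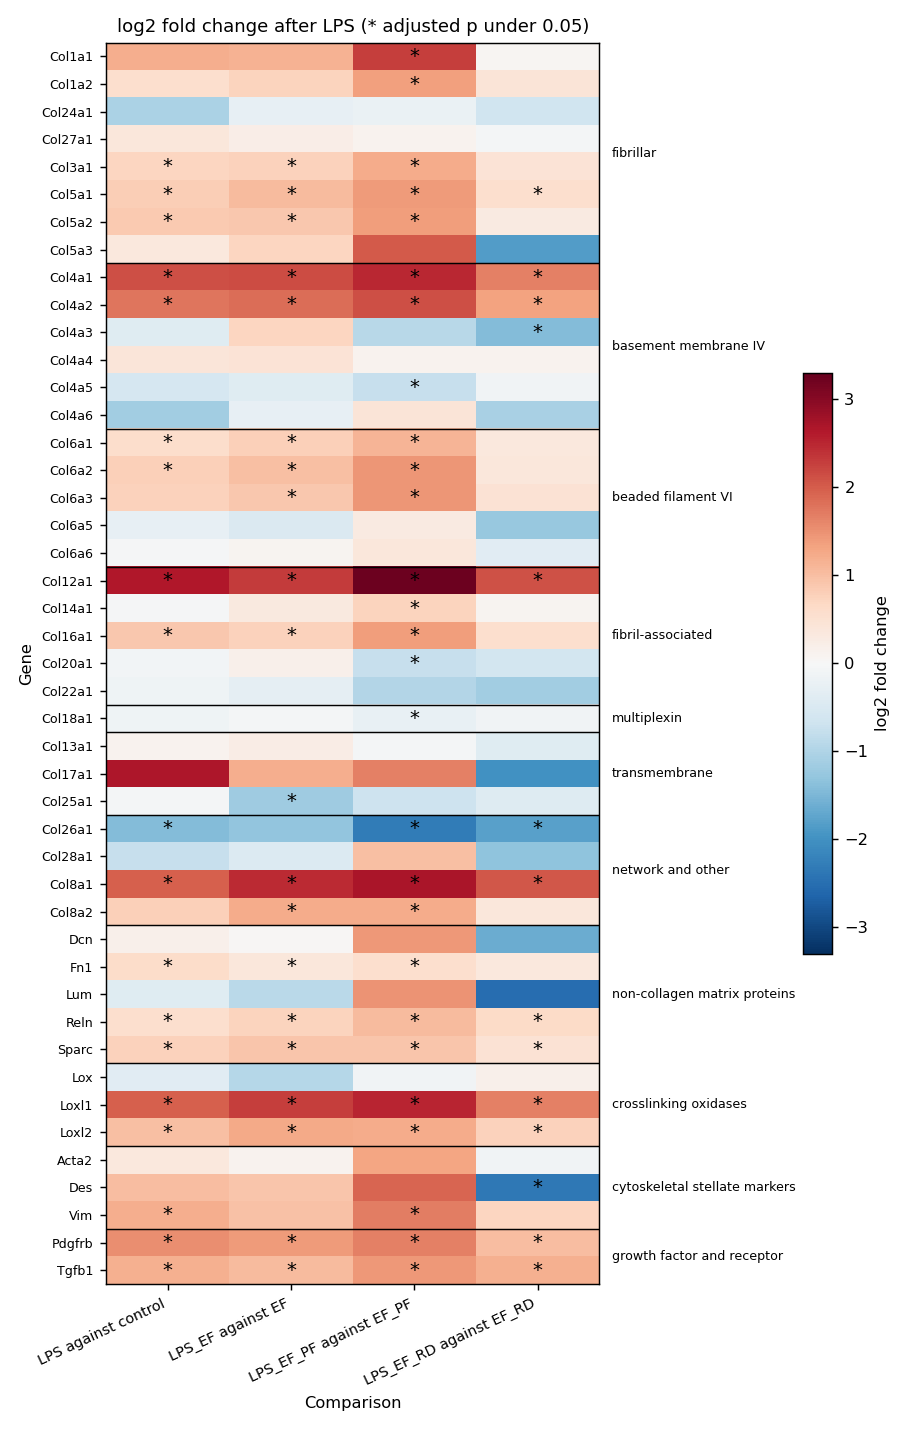
Log2 fold change (colour) of the 45 tested genes in rows, grouped by role, in the 4 LPS comparisons in columns; a star marks an adjusted p under 0.05. Among the 11 genes with a star in each column, Col4a1, Col4a2, Col8a1, Col12a1 and Loxl1 carry the deepest red. Des is red in the first 3 columns and blue in the fourth.

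Higher after LPS in each of the 4 comparisons were 11 members, against 7.55% of all genes: the collagens Col4a1, Col4a2, Col5a1, Col8a1 and Col12a1, the crosslinking enzymes Loxl1 and Loxl2, the PDGF receptor gene Pdgfrb, the growth factor gene Tgfb1, and Sparc and Reln. Col3a1, Col5a2, Col6a1, Col6a2, Col16a1 and Fn1 were higher in 3 comparisons, each missing the threshold in LPS_EF_RD against EF_RD. Vim, Col6a3 and Col8a2 were higher in 2 and Col1a1, Col1a2 and Col14a1 in 1. No member was lower in all 4, and Col26a1 was lower in 3. Tested but not called in either direction in any of the 4 were Col4a4, Col4a6, Col5a3, Col6a5, Col6a6, Col13a1, Col17a1, Col22a1, Col24a1, Col27a1, Col28a1, Dcn, Lum, Lox and Acta2.

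Collagen IV was led by its widespread chains. Col4a1 (chr16:83522162-83632153 in rn6) was at 37.7, 56.6, 61.0, 74.7 and 59.2 CPM in the control livers and at 218, 319, 298, 194 and 226 CPM after LPS. All 5 LPS livers were far above all controls. The log2 fold change was 2.12 ± 0.31 (SE, n = 5 against 5), with an edgeR adjusted p of 7.59e-06. Col4a2 (chr16:83386388-83522169) went from 29.6, 37.5, 43.3, 49.2 and 46.8 CPM to 122, 171, 169, 114 and 128 CPM, again without overlap. Its log2 fold change was 1.77 ± 0.25 with an edgeR adjusted p of 5.87e-06, the smallest of any member there.

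With EF, Col4a1 was at 61.4, 34.5, 45.7, 37.1 and 28.8 CPM without LPS and at 218, 224, 202, 203 and 81.5 CPM with it. The last of these is LPS_EF 7, which lay nearer to the EF livers than to its own group, although above them. With EF and PF, the livers without LPS ran from 41.1 to 56.3 CPM and those with LPS were at 331, 254, 222 and 322 CPM. With EF and RD, values were 112, 51.5, 52.3 and 46.8 CPM without LPS and 152, 393, 189, 77.6 and 236 CPM with it. Here the groups overlapped, since EF_RD 1 at 112 CPM was above LPS_EF_RD 6 at 77.6 CPM. The log2 fold changes were 2.16 ± 0.31, 2.49 ± 0.32 and 1.67 ± 0.33 for EF, EF_PF and EF_RD, all called.

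The other chains of collagen IV, which make the networks of specialised basement membranes, did not follow. Col4a5 had log2 fold changes of -0.55 ± 0.24, -0.40 ± 0.24, -0.75 ± 0.25 and -0.10 ± 0.25 and was called only with EF and PF (edgeR adjusted p = 0.0203). Col4a3 was called lower with EF and RD (-1.44 ± 0.50, adjusted p = 0.0357), and that call was lost in 6 of 9 fits that left out 1 liver, with -0.99 without EF_RD 1 (adjusted p = 0.170). Col4a4 and Col4a6 were not called in any of the 4.

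Col4a1 rose more than its partner Col4a2, so the ratio of their per-length levels changed. The ratio was 1.37 ± 0.12 (SD, n = 5) in control livers and 1.75 ± 0.06 (n = 5) after LPS, and the groups did not overlap (largest control 1.49, smallest LPS 1.68). With EF it was 1.28 ± 0.15 and 1.58 ± 0.14, with EF and PF 1.36 ± 0.08 and 1.75 ± 0.10, and with EF and RD 1.31 ± 0.13 and 1.65 ± 0.12. Two-sided exact permutation tests gave p = 0.00794, 0.0317, 0.0159 and 0.0159 in the same order, and 0.0212, 0.0317, 0.0212 and 0.0212 after Benjamini-Hochberg adjustment over the 4. The smallest p that 5 against 5 livers allow is 0.00794, and 0.0159 for 4 against 5. With EF the groups overlapped, since LPS_EF had a lowest ratio of 1.33 and EF a highest of 1.42, and the exact permutation p reached 0.0635 when 1 liver was left out. The ratio was chosen after its values were seen. The exon models of the pair share 8 bases.

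**Figure D3:**
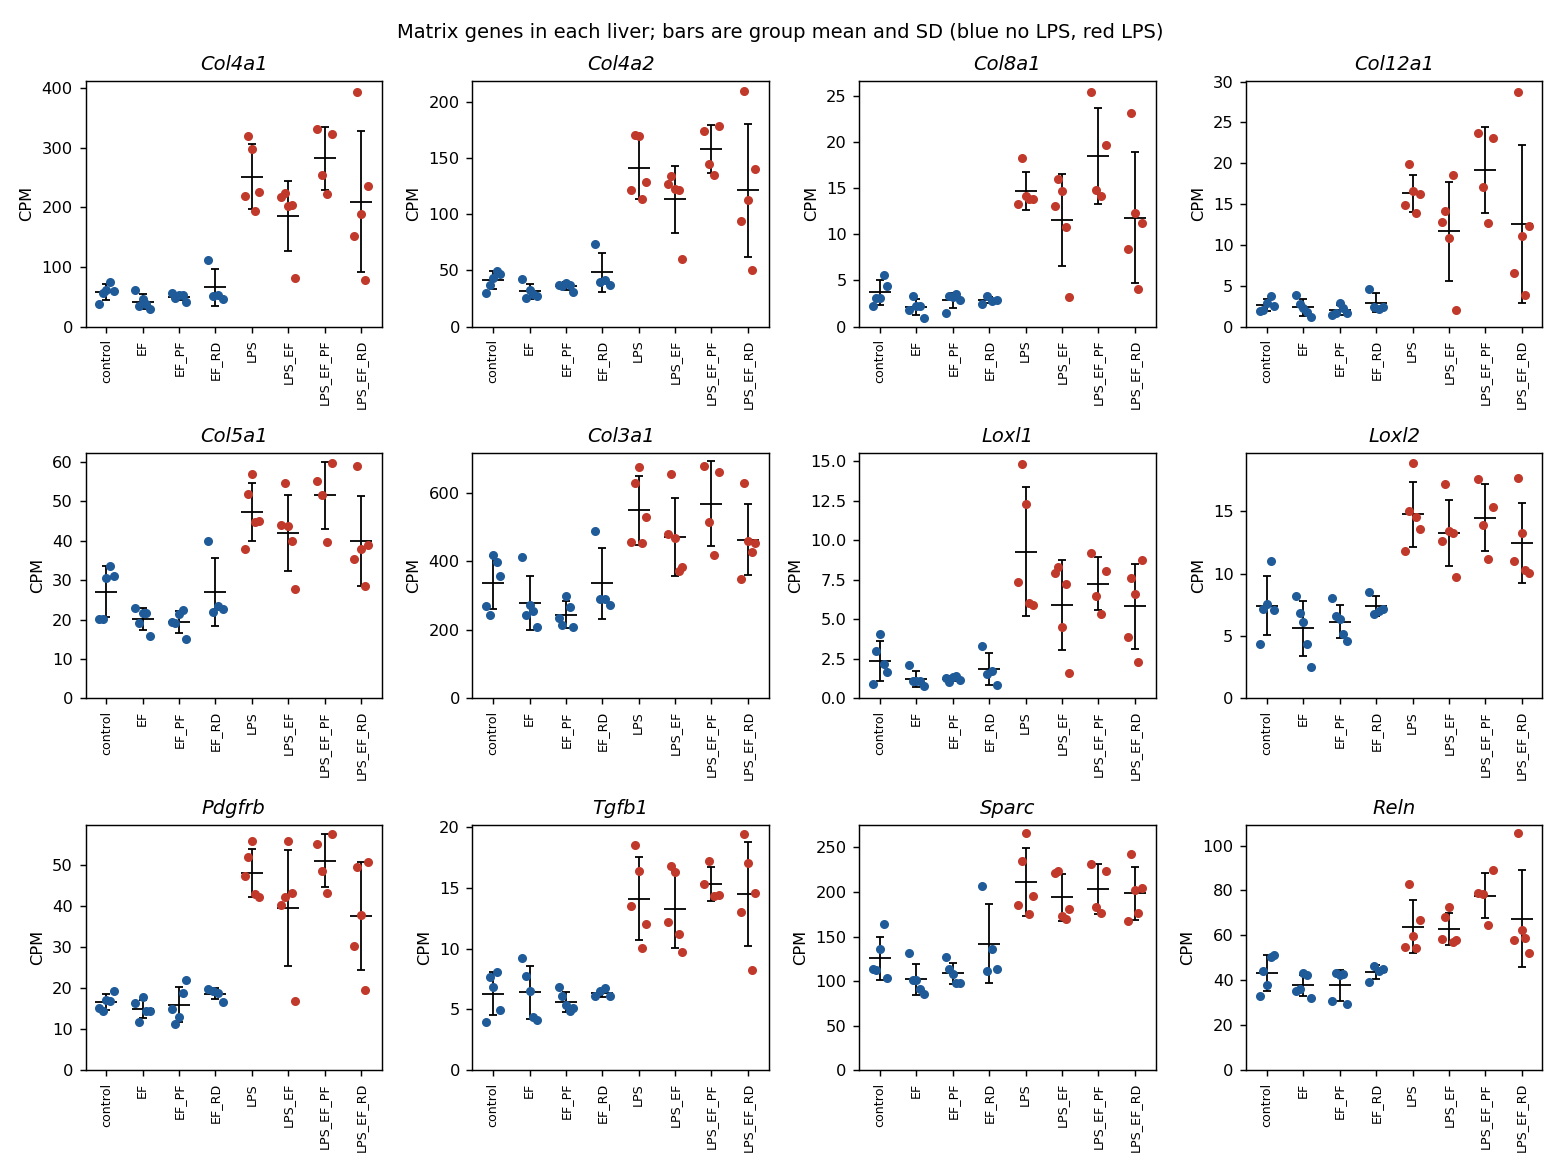
CPM (linear axis from 0) of 12 members in each of 38 livers by group, blue without and red with LPS; black bars are group means and SD. For Col4a1 the 5 LPS livers lie between 194 and 319 CPM and the 5 controls between 37.7 and 74.7 CPM, and LPS_EF 7 is the low red point in the LPS_EF column.

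Large fold changes were also seen in collagens of low level. Col12a1, a fibril-associated collagen of tissue under tension, was at 1.91, 1.99, 2.93, 3.71 and 2.56 CPM in control livers and 14.9, 19.9, 16.6, 13.9 and 16.3 CPM after LPS. The groups were several-fold apart with no overlap. Its log2 fold changes were 2.64 ± 0.42, 2.31 ± 0.43, 3.25 ± 0.45 and 2.10 ± 0.45 in the 4 comparisons, with edgeR adjusted p from 4.01e-06 to 0.00137. In LPS_EF 7 it was at 2.02 CPM, inside the range of the EF livers (1.14 to 3.82 CPM).

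Col8a1, a short-chain network collagen made by vascular cells, was at 2.19, 3.14, 3.12, 5.64 and 4.43 CPM in control livers and 13.3, 18.2, 14.1, 13.9 and 13.8 CPM after LPS. Again every LPS liver was above every control. The log2 fold changes were 1.98 ± 0.35, 2.46 ± 0.37, 2.69 ± 0.38 and 2.05 ± 0.39, and in LPS_EF_RD against EF_RD it had the lowest adjusted p of the members (edgeR, 0.000444). With RD the livers without LPS ran from 2.51 to 3.3 CPM, and those with LPS from 4.08 to 23.1 CPM. For this gene EF_RD 1 was the lowest of its group, and the groups did not overlap. The related chain Col8a2 was called in LPS_EF against EF (1.22 ± 0.37) and LPS_EF_PF against EF_PF (1.22 ± 0.39).

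Of 8 tested fibrillar collagens, 3 were called higher in LPS against control (Col3a1, Col5a1 and Col5a2), and 3, 5 and 1 with EF, EF_PF and EF_RD. Of all genes tested, 18.6%, 14.6%, 19.2% and 12.8% were called higher in the same order. With RD the share of fibrillar collagens was near that of all genes. Col3a1 was at 270, 244, 419, 398 and 357 CPM in control livers and at 456, 629, 675, 455 and 530 CPM after LPS, without overlap. Its log2 fold change was 0.70 ± 0.20 (edgeR adjusted p = 0.00625), and 0.76 ± 0.20, 1.22 ± 0.21 and 0.46 ± 0.21 with EF, EF_PF and EF_RD. The last was not called (adjusted p = 0.109); EF_RD 1 was at 490 CPM there and the other EF_RD livers at 274 to 291 CPM. Without EF_RD 1 the log2 fold change was 0.70 and was called.

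Col5a1, whose chain starts and limits the width of fibrils, was at 20.3, 20.1, 30.5, 33.7 and 31.1 CPM in controls and 37.9, 51.8, 56.9, 44.7 and 45.1 CPM after LPS. Its groups were also apart. Col5a1 was called in all 4 comparisons, from 0.57 ± 0.20 with RD (edgeR adjusted p = 0.0409) to 1.40 ± 0.20 with PF. With RD the call was lost in 6 of the 9 fits that left out 1 liver. Its partner chain Col5a2 had 0.87 ± 0.28, 0.89 ± 0.28, 1.38 ± 0.30 and 0.30 ± 0.30, with the last not called; in LPS against control the call was lost without LPS 3 (adjusted p = 0.0645).

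Col1a1 (chr10:82745801-82762790 in rn6) was at 14.0, 14.7, 68.0, 24.7 and 9.61 CPM in controls and at 41.0, 66.4, 129, 34.2 and 28.3 CPM after LPS. The groups overlapped through control 5, at 68.0 CPM, and the highest LPS value was LPS 3. Both are the libraries with the highest sums of pancreas markers. A log2 fold change of 1.19 ± 0.66 was not called (edgeR adjusted p = 0.158). It was not called with EF (1.16 ± 0.66, adjusted p = 0.195), where EF 1 was at 48.5 CPM and the other EF livers at 4.36 to 12.9 CPM; without EF 1 it was 2.01 and was called (adjusted p = 0.0269). Nor was it called with RD (0.06 ± 0.69, adjusted p = 0.959). With RD, EF_RD 1 was at 113 CPM and the other 3 EF_RD livers at 5.05 to 21.3 CPM, and without that library the log2 fold change was 1.70 (adjusted p = 0.0744).

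Col1a1 was called with EF and PF. It was at 8.80, 11.7, 15.1, 12.1 and 15.2 CPM without LPS and at 75.5, 52.6, 32.4 and 83.7 CPM with it. Every LPS_EF_PF liver was above every EF_PF liver, with a log2 fold change of 2.28 ± 0.71 (edgeR adjusted p = 0.0118). Whether that response differed from the one without extract was tested as an interaction, which gave 1.09 ± 0.95 (adjusted p = 0.988). Leaving out livers one at a time moved the log2 fold change of Col1a1 in LPS against control between 0.70, without LPS 3, and 1.92, without control 5, and it was called without control 5 (adjusted p = 0.0290).

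Col1a2 stayed between 0.0789 and 1.37 CPM in all livers. It was called with EF and PF only (1.35 ± 0.53, edgeR adjusted p = 0.0460), and 7 of 9 fits that left out 1 liver lost that call. Col24a1 and Col27a1 were not called, and neither was Col5a3, whose highest level in any liver, 14.1 CPM, was in EF_RD 1.

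Of 5 tested chains of collagen VI, the filament network around cells, 2 were called higher in LPS against control, 3 with EF, 3 with PF and 0 with RD. The shares of all genes called higher were 18.6%, 14.6%, 19.2% and 12.8%. Col6a1 was at 43.6, 54.0, 83.2, 74.5 and 67.5 CPM in controls and 83.5, 98.9, 135, 86.3 and 77.2 CPM after LPS. LPS 5 at 77.2 CPM was below control 5 at 83.2 CPM, so the groups overlapped. The log2 fold change was 0.58 ± 0.20 (edgeR adjusted p = 0.0266), and the call was lost without LPS 3 (adjusted p = 0.122). With EF and PF the livers were at 41.5 to 54.5 CPM without LPS and at 96.5 to 106 CPM with it, a log2 fold change of 1.12 ± 0.22. Col6a2 followed the same pattern (0.78 ± 0.30, 1.0 ± 0.30, 1.45 ± 0.32 and 0.37 ± 0.32, the last not called), and Col6a3 was called with EF (0.88 ± 0.32) and with PF (1.47 ± 0.34). The Col6a2 call in LPS against control was lost in 6 of 10 fits that left out 1 liver, and was 0.57 without LPS 3 (edgeR adjusted p = 0.156). For Col6a3 with EF, 8 of 10 such fits lost the call. Col6a1 with RD (0.35 ± 0.22, adjusted p = 0.254) was 0.70 and called without EF_RD 1 (adjusted p = 0.0133).

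Of the remaining collagens, Col16a1, a fibril-associated chain, was called in 3 comparisons (0.88 ± 0.27, 0.77 ± 0.28 and 1.39 ± 0.29), and with EF the call was lost in 7 of 10 fits that left out 1 liver. Col14a1, another fibril-associated collagen, was near its control level after LPS (-0.04 ± 0.20) and was called with PF (0.74 ± 0.21). Col18a1, the most abundant collagen per length, hardly moved: its log2 fold changes were -0.14 ± 0.09, -0.07 ± 0.09, -0.24 ± 0.09 and -0.11 ± 0.09, with a call only for the third (edgeR adjusted p = 0.0401). Its levels lay between 574 and 881 CPM in every liver.

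Col26a1 was lower after LPS, at levels near the limit of counting. It was at 0.419, 0.307, 0.0930, 0.618 and 1.09 CPM in controls and 0.238, 0.135, 0.111, 0.273 and 0.169 CPM after LPS. The groups overlapped through control 5. Its log2 fold changes were -1.43 ± 0.56, -1.30 ± 0.57, -2.31 ± 0.68 and -1.79 ± 0.67, all but the second called, and in LPS against control 7 of 10 fits that left out 1 liver lost the call, among them the fit without LPS 3 (-1.30, edgeR adjusted p = 0.0963). Col25a1 was lower with EF (-1.18 ± 0.43, edgeR adjusted p = 0.0387) and Col20a1 with PF (-0.77 ± 0.26, adjusted p = 0.0197), both under 2 CPM in every liver. Scaling by total counts moved the median of all genes to 0.128 in LPS against control and 0.144 with PF. Under it the members called lower went from 1, 1, 4 and 3 to 0, 0, 1 and 2 in the 4 comparisons.

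Of the 5 non-collagen matrix proteins, Fn1 was called higher in 3 comparisons, Sparc and Reln in 4, and Dcn and Lum in none. Fn1 was at 2580, 3350, 2666, 3132 and 3261 CPM in controls and at 4850, 4854, 3760, 5203 and 4217 CPM after LPS, without overlap. Its log2 fold change was 0.61 ± 0.13 (edgeR adjusted p = 0.000534), and it was 0.37 ± 0.13, 0.54 ± 0.14 and 0.34 ± 0.14 with EF, EF_PF and EF_RD. The last was not called (adjusted p = 0.0746) but was without EF_RD 1 (0.49, adjusted p = 0.0123), and with EF 4 of 10 fits that left out 1 liver lost the call. In EF_RD 1 Fn1 was at 4193 CPM, above the other EF_RD livers at 2771 to 3009 CPM.

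Sparc was at 114, 112, 136, 164 and 103 CPM in controls and 185, 235, 266, 175 and 195 CPM after LPS. No LPS liver was as low as any control. The log2 fold changes were 0.75 ± 0.15, 0.92 ± 0.15, 0.90 ± 0.16 and 0.48 ± 0.16, all called. With RD the Sparc call (adjusted p = 0.0311) was lost in 6 of the 9 fits that left out 1 liver, with an edgeR adjusted p of up to 0.127. Reln, which encodes reelin, a secreted glycoprotein made by stellate cells in liver, was at 32.8 to 51.2 CPM in controls and 54.6 to 82.9 CPM after LPS, with log2 fold changes of 0.56 ± 0.16, 0.73 ± 0.16, 1.04 ± 0.16 and 0.62 ± 0.17. For Reln, EF_RD 1 was the lowest of its group (39.4 CPM). With RD the Reln call was lost without LPS_EF_RD 2 (edgeR adjusted p = 0.0674).

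Dcn, the gene of decorin, a proteoglycan of fibrous tissue, was at 10.2, 9.81, 65.3, 20.4 and 7.22 CPM in controls and 19.8, 5.72, 69.9, 18.9 and 12.4 CPM after LPS. The high values are control 5 and LPS 3, and the remaining livers of both groups overlapped. Its log2 fold change was 0.17 ± 0.70 (edgeR adjusted p = 0.871). Decorin was not called in any of the 4 comparisons, and neither was Lum, the related lumican, whose range over 38 livers (0.413 to 53.8 CPM) again had EF_RD 1 at the top. Without LPS 3 and EF_RD 1 the estimate for Dcn turned to -0.67, also not called (adjusted p = 0.392).

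The crosslinking oxidases split. Loxl1, which crosslinks elastin, was at 0.885, 3.03, 4.09, 2.18 and 1.65 CPM in controls and 7.37, 14.8, 12.3, 6.04 and 5.91 CPM after LPS, with no overlap. The log2 fold changes were 1.97 ± 0.40, 2.28 ± 0.42, 2.53 ± 0.43 and 1.65 ± 0.44 (edgeR adjusted p from 4.06e-05 to 0.0064). Loxl2, which crosslinks collagen IV, had 0.99 ± 0.23, 1.24 ± 0.23, 1.23 ± 0.24 and 0.76 ± 0.24, all called, the last lost in 4 of 9 fits that left out 1 liver. Lox, the founding member of the family, had -0.36 ± 0.68, -0.94 ± 0.70, -0.11 ± 0.72 and 0.18 ± 0.74 and was not called. Its level ranged from 7.16 to 28.9 CPM within the controls alone, and 133 of its exon bases are shared with the gene name Zfp474.

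Pdgfrb encodes the receptor by which PDGF acts on pericytes and stellate cells. It was at 15.2, 14.3, 17.2, 16.8 and 19.3 CPM in controls and 47.3, 52.0, 55.9, 42.9 and 42.2 CPM after LPS. The spread within each group was small against the gap. With LPS it was higher by a log2 fold change of 1.54 ± 0.22 (edgeR adjusted p = 7.07e-06), with 1.40 ± 0.22, 1.67 ± 0.23 and 1.01 ± 0.23 in the other 3 comparisons, all called. Of the libraries rich in muscle or pancreas markers, EF_RD 1 was at 19.7 CPM beside 16.6 to 19.2 CPM in its group, control 5 was inside its group at 17.2 CPM, and LPS 3 was the highest of its group at 55.9 CPM. Without LPS 3 the log2 fold change of Pdgfrb was 1.47. LPS_EF 7 and LPS_EF_RD 6 were at 16.9 and 19.5 CPM, within the levels of livers without LPS.

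Tgfb1, the gene of TGF-beta 1, was at 3.96, 7.63, 6.84, 8.08 and 4.96 CPM in controls and 13.5, 18.6, 16.4, 10.1 and 12 CPM after LPS, without overlap. Its log2 fold changes were 1.16 ± 0.22, 1.05 ± 0.22, 1.44 ± 0.23 and 1.18 ± 0.23, with edgeR adjusted p from 1.68e-05 to 0.000605. With RD the livers without LPS were at 6.14, 6.55, 6.73 and 6.08 CPM and those with LPS at 13, 19.4, 17.1, 8.22 and 14.6 CPM. There too every LPS-treated liver was above the others, and EF_RD 1 did not stand apart.

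The cytoskeletal markers of stellate cells did not move together. Vim was at 26.7, 20.6, 54.0, 28.6 and 18.3 CPM in controls and 70.2, 67.4, 98.5, 45.7 and 57.5 CPM after LPS. LPS 4 at 45.7 CPM was below control 5 at 54.0 CPM, and the other LPS livers were above all controls. The log2 fold change was 1.20 ± 0.39 (edgeR adjusted p = 0.0156), which missed the threshold without LPS 3 (adjusted p = 0.0517). With PF it was 1.70 ± 0.41, from 19.9 to 22.5 CPM without LPS to 69.1 to 71.6 CPM with it, a narrow range in both groups. With EF, Vim was at 0.97 ± 0.39 (edgeR adjusted p = 0.0571), and it was called without EF 1 (1.36) and without LPS_EF 7 (1.15). With RD it was 0.70 ± 0.41 (adjusted p = 0.216), and 1.67 without EF_RD 1 (adjusted p = 0.0021).

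Acta2, the usual mark of activated stellate cells and of smooth muscle, was at 4.38, 5.87, 33.6, 6.22 and 2.70 CPM in controls and 16.4, 8.06, 20.4, 10.9 and 10.7 CPM after LPS. Control 5 was above every LPS liver, and the other 4 controls were below every one. The log2 fold change was 0.34 ± 0.58 (edgeR adjusted p = 0.684), and it was 1.47 without control 5, where it passed the threshold. It was 0.11 ± 0.58 with EF, 1.30 ± 0.62 with PF (adjusted p = 0.0984) and -0.12 ± 0.61 with RD, and none was called. With EF, EF 1 was at 29.8 CPM beside 3.98 to 6.97 CPM in the other EF livers.

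Des, which encodes desmin, the filament of muscle and of rat stellate cells, was at 2.27, 4.36 and 2.32 CPM in 3 EF_RD livers and at 152 CPM in EF_RD 1. After LPS with EF and RD it was at 3.91, 9.95, 9.63, 4.88 and 10.6 CPM. Des was called lower there (-2.37 ± 0.79, edgeR adjusted p = 0.0275), and without EF_RD 1 the sign turned, to 1.39 (adjusted p = 0.0841). In the other comparisons it was higher by 1.01 ± 0.76, 0.91 ± 0.77 and 1.92 ± 0.83, without a call.

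**Figure D4:**
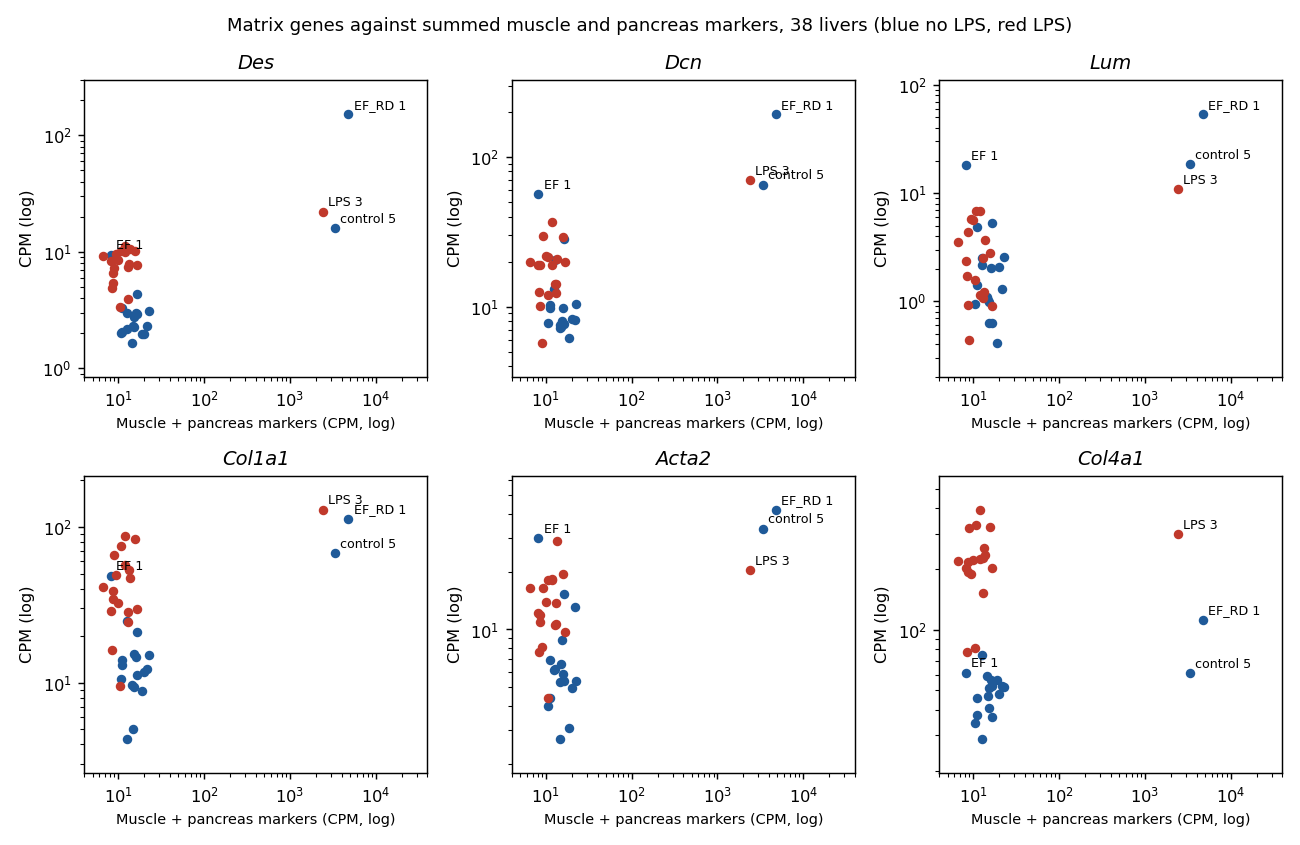
CPM of 6 members against the summed CPM of skeletal muscle and exocrine pancreas markers in 38 livers, both axes logarithmic, blue without and red with LPS. EF_RD 1 has the highest Des (152 CPM), Dcn and Lum, while for Col4a1 the red and blue points separate at low marker sums.

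The effect of the libraries with muscle or pancreas markers was measured by leaving out control 5, LPS 3 and EF_RD 1, a choice made after the marker sums were seen. LPS against control then had 22 members higher and 1 lower of 44 tested, and LPS_EF_RD against EF_RD had 23 higher and 1 lower. The counts with these libraries were 18 and 1, and 11 and 3. Over all genes tested, the number called higher went from 2752 to 2545 in LPS against control and from 1889 to 2066 in LPS_EF_RD against EF_RD.

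Genes that act with these members were described from fixed lists, chosen with earlier results of these data known. For comparison, 18.6%, 14.6%, 19.2% and 12.8% of all genes were called higher in LPS against control and with EF, EF_PF and EF_RD. The shares called lower were 18.1%, 14.5%, 17.3% and 10.7%. Of 24 tested genes for collagen biosynthesis and secretion, 15 were higher and 1 lower in LPS against control, and 14, 16 and 12 were higher and 1 lower with EF, EF_PF and EF_RD. The median log2 fold change in LPS against control was 0.50. Plod2, the telopeptide lysyl hydroxylase that sets the type of collagen crosslink, rose by 2.13 ± 0.49, and Pcolce, an enhancer of procollagen processing, by 2.04 ± 0.38 (edgeR adjusted p = 0.00108 and 0.000106). Sec23a, a coat protein of the vesicles that carry procollagen, fell by 0.55 ± 0.10.

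Of 29 TGF-beta pathway genes, 16 were higher and 1 lower in LPS against control, with 13 and 0, 17 and 2, and 8 and 2 in the extract settings; the median in LPS against control was 0.46. Ltbp2, a protein of the latent TGF-beta binding family, rose by 1.90 ± 0.33 and Thbs1, thrombospondin 1, which activates latent TGF-beta, by 1.41 ± 0.34 (edgeR adjusted p = 5.23e-05 and 0.00152). Smad6, an inhibitor of the pathway, was also called (1.38 ± 0.18); it lies outside the naming rule and was picked after its value was seen. Tgfbi, a matrix protein induced by TGF-beta, fell by 0.46 ± 0.09.

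Of 5 PDGF ligand and receptor genes other than Pdgfrb, Pdgfb (1.91 ± 0.46) and Pdgfra (0.42 ± 0.15) were higher after LPS, and both were also higher with EF and with PF. None was called with RD. Of 14 laminins and their basement membrane partners, 7 were higher and 1 lower, among them the linker nidogen, Nid1, which was higher (1.31 ± 0.20); 7, 9 and 2 were higher and none lower with EF, EF_PF and EF_RD. The lower gene was the laminin chain gene Lamb3 (-0.99 ± 0.36, edgeR adjusted p = 0.0303). The 2 of 14 called higher with RD were near the share of all genes, 12.8%.

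Of 22 other matrix proteins, 9 were higher and 1 lower in LPS against control, with the provisional matrix genes Vcan (3.36 ± 0.68) and Tnc (2.40 ± 0.69) in front and Ecm1 (-0.63 ± 0.15) lower. The counts were 10 and 0 with EF, 10 and 0 with PF, and 7 and 1 with RD. The median of that list was 0.16 in LPS against control. No gene of these 5 lists was called in any comparison of extracts or in any interaction.

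Markers of cell types moved as well, and their part in the matrix genes was not tested. Of all genes tested, 18.6% were called higher and 18.1% lower in LPS against control. In LPS against control, 10 of 15 endothelial markers were higher and none lower, and the summed level went from 237 to 553 CPM in control livers to 587 to 757 CPM. Among 15 markers of Kupffer cells and macrophages, 8 rose and none fell (summed level 422 to 846 against 897 to 1259 CPM), and of 12 tested neutrophil and monocyte markers all 12 were higher (summed level of 15 genes, 16.7 to 48.7 against 173 to 270 CPM). Of 15 hepatocyte markers 9 were lower and none higher. None of the endothelial, macrophage or neutrophil markers was at 0 in all libraries of the control or LPS group.

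Of 13 quiescent stellate cell markers, 6 were higher and 3 lower in LPS against control, where 18.6% and 18.1% of all genes were. Cygb, cytoglobin, a globin of stellate cells, rose by 1.86 ± 0.27 and Rgs5, a pericyte marker, by 1.30 ± 0.26. Hhip, a binder of hedgehog ligands, fell by 1.49 ± 0.41 and Colec11, a collectin, by 0.83 ± 0.14. The summed level of the 13 genes overlapped between the groups (172 to 213 CPM in controls, 192 to 234 CPM after LPS). None of 7 tested smooth muscle markers and 1 of 8 portal fibroblast markers (Eln, 1.06 ± 0.36, also among the other matrix proteins) was called. Lower were 3 of 8 mesothelial markers and 3 of 11 tested cholangiocyte markers, with Krt7 and Krt19 in both lists. Control 5 stood apart in both, with summed levels of 90 CPM of mesothelial markers (28.4 to 45.6 in the other controls) and 203 CPM of cholangiocyte markers (75.7 to 82.6).

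The extracts by themselves were followed by few calls. In EF against control and EF_PF against control, edgeR called 0 of 45 members, against 0.92% (0.656% higher, 0.264% lower) and 0.622% (0.446% higher, 0.176% lower) of all genes; DESeq2 also called 0, and 4 and 7 members had an unadjusted p under 0.05. The lowest adjusted p was that of Col14a1 in both (-0.45 ± 0.20, adjusted p = 0.346, and -0.51 ± 0.20, adjusted p = 0.234). Col14a1 was at 55.1 to 92.2 CPM in controls, 42.3 to 67.4 CPM with EF and 35.9 to 59.1 CPM with PF, and the ranges overlapped. Estimates were above 0 for 9 and 8 of the 45 members (20% and 17.8%), against 51.7% and 46.2% of all genes. In EF_RD against control, which uses the same control livers, they were above 0 for 33 members (73.3%), against 51.7% of all genes. The library EF_RD 1 enters that share. It was at 490 CPM for Col3a1 and 112 CPM for Col4a1, with the other EF_RD livers at 274 to 291 and 46.8 to 52.3 CPM. For Reln and Col8a1 it was the lowest of its group. The share without EF_RD 1 is not given, and its part was not tested. Control 5, with 3346 CPM of pancreas markers, enters the shares of all the extracts. It was at 68.0 CPM for Col1a1 and 33.6 CPM for Acta2, with the other controls at 9.61 to 24.7 and 2.70 to 6.22 CPM. For Col4a1 it was inside the range of the other controls. Shares without control 5 are not given, and its part was not tested.

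In EF_RD against control 1 member was called (all genes 1.52%, with 0.859% higher and 0.663% lower), Col17a1, a transmembrane collagen of epithelia, with 4.49 ± 1.10 (edgeR adjusted p = 0.0299). It was at 4.19 CPM in EF_RD 1 and at 0.0737 CPM or less in the other EF_RD livers, and without EF_RD 1 its estimate was -0.06. In EF_RD against EF 1 member was called (all genes 0.724%, with 0.487% higher and 0.237% lower), Des, with 3.35 ± 0.82 (adjusted p = 0.0425), and without EF_RD 1 its estimate was -0.41. Both calls thus rest on that library, which held 4627 CPM of skeletal muscle markers. In EF_PF against EF edgeR and DESeq2 called 0 members (all genes 0.162%, with 0.0676% higher and 0.0947% lower), with 4 at an unadjusted p under 0.05.

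Under LPS, the extracts were compared with LPS alone. LPS_EF, LPS_EF_PF and LPS_EF_RD against LPS gave 0 members called by edgeR and by DESeq2, against 0.108%, 0.0406% and 0.0135% of all genes. By direction, 0.0744%, 0.0271% and 0.0135% of all genes were higher and 0.0338%, 0.0135% and 0% lower. At an unadjusted p under 0.05 there were 1, 0 and 0 members. Col4a1 had log2 differences of -0.43 ± 0.29, 0.17 ± 0.31 and -0.26 ± 0.29, and Tgfb1 of -0.09 ± 0.21, 0.12 ± 0.22 and 0.04 ± 0.21. Loxl1 had the lowest adjusted p in LPS_EF_RD against LPS (-0.67 ± 0.38, adjusted p = 0.712). These misses do not show that levels were alike.

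Adding PF or RD to EF under LPS also gave 0 calls by edgeR and by DESeq2 (all genes 0.00676% and 0%), with 2 and 0 members at an unadjusted p under 0.05. The lowest adjusted p with PF was that of Col18a1, -0.26 ± 0.09 (adjusted p = 0.527). Col18a1 was at 574, 635, 620 and 667 CPM in LPS_EF_PF and at 704 to 842 CPM in LPS_EF, so these livers did not overlap. In that comparison 1 member was lower and 1 higher without overlap, against 2.06% and 1.75% of all genes.

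Whether an extract altered the response to LPS was tested as an interaction. For EF, EF_PF and EF_RD edgeR called 0 members each, as did DESeq2 (all genes 0.108%, 0.0812% and 0.128%), with 0, 3 and 2 members at an unadjusted p under 0.05. With PF these were Col14a1 (0.79 ± 0.28, edgeR adjusted p = 0.838), Col5a1 (0.60 ± 0.28) and Reln (0.48 ± 0.23), and with RD Col17a1 (-4.69 ± 1.44, adjusted p = 0.354) and Des (-3.38 ± 1.09), the genes set by EF_RD 1. For Pdgfrb the interactions were -0.13 ± 0.31, 0.14 ± 0.32 and -0.52 ± 0.32. The larger count of members called with PF than without extract is therefore not shown to be a difference in response.

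**Figure D5:**
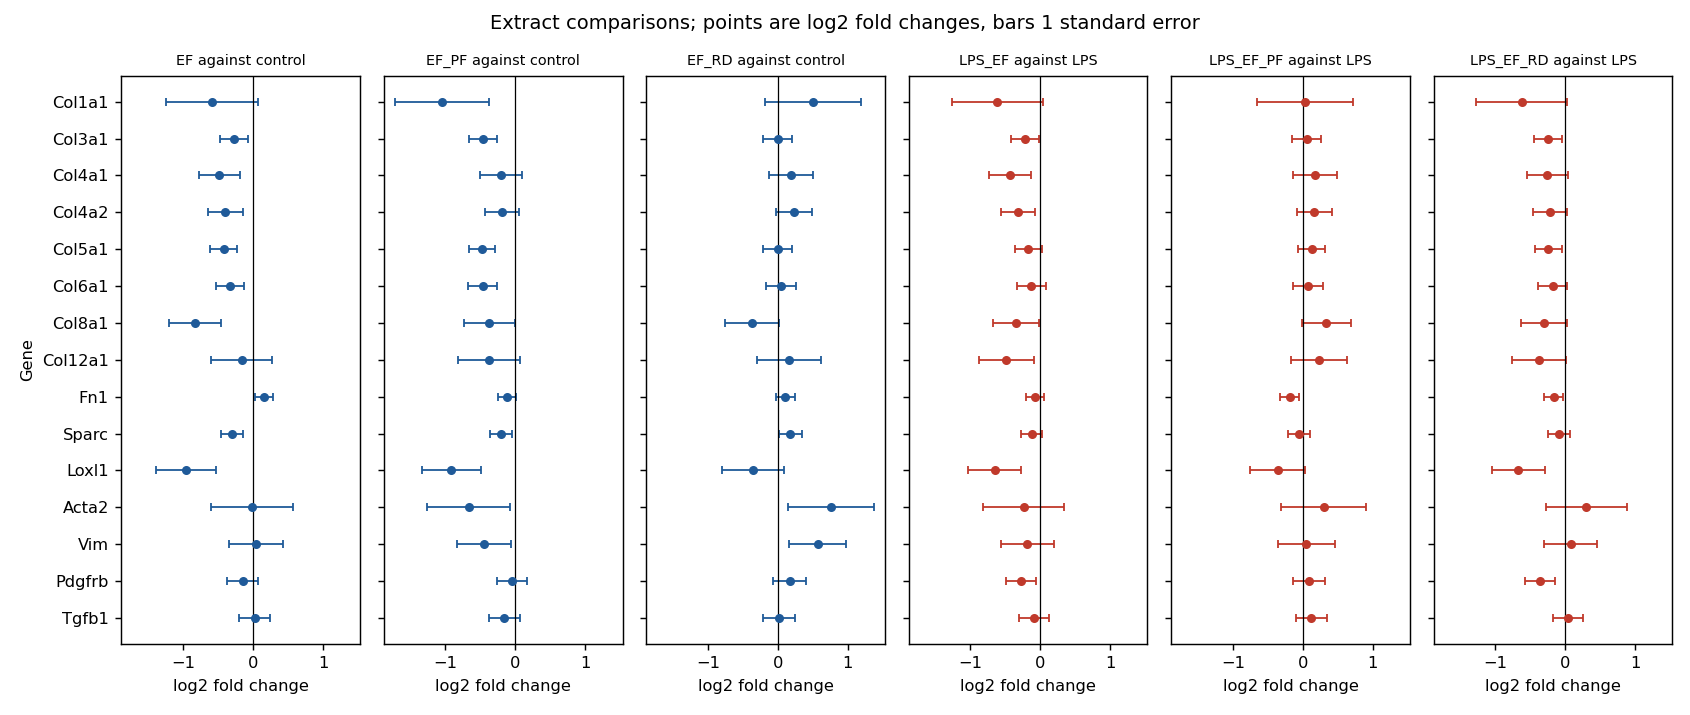
Log2 fold change (points) with 1 standard error (bars) of 15 members for each extract against control (blue) and each LPS and extract group against LPS (red). No point shown was called; Loxl1 lies at -0.96 in EF against control and -0.67 in LPS_EF_RD against LPS.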

How the data were processed

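RNA of 38 rat livers was sequenced. Read pairs were counted per gene name by the authors with featureCounts 2.0.6 on an rn6 annotation, per the file headers, without a strand setting. STAR, RSEM and mRatBN7.2 are listed in the submitters' processing notes without a role or version. The deposited counts were tested as given. The deposited TPM values, which scale for gene length, were used only for levels between genes and for chain ratios.

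Genes passing edgeR's filterByExpr (minimum count 10, minimum total 15) were fitted in all 38 libraries with 8 group means, TMM scaling and the quasi-likelihood test (edgeR 4.0.16, limma 3.58.1, R 4.3.3). Adjustment was by Benjamini-Hochberg over all genes tested, with a threshold of 0.05. Standard errors are the log2 fold change over the square root of F. CPM are counts scaled by library total and TMM factor. Depth ranged from 19716622 to 35835012 counted read pairs. Replicates of a group differed by more than counting noise (lowest chi-square per degree of freedom 5.32). That lowest value was between EF_RD 2 and EF_RD 4, and all other pairs were at 22.1 or more. Why these 2 libraries were so alike was not tested. On simulated counts, 76.0% of 2-fold and 90.8% of 4-fold changes were recovered and 3.51% of calls were false, on 14609 genes. Only 100 of the genes tested were changed 2-fold and 98 changed 4-fold, where LPS against control called 36.8% of genes. The simulation also had no libraries with markers of other tissues, so its rates may not hold for the comparisons reported.

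The members and the gene lists were chosen with earlier results of these data known. The naming rule was to describe 13 members always, and in each comparison up to 20 called members by size of change whose higher group averaged 0.5 CPM or more. From each pathway list it took up to 2 called genes in each direction. The values of 1 gene that this rule takes are not reported here. Called members below that mean, and the members with the lowest adjusted p where none was called, were named after their values were seen. Alternatives were no filter, total-count scaling, DESeq2 1.42.0, a replicate block, a fit of only the groups compared, and leaving out libraries. Promoter sequences came from RefSeq on GRCr8, whose coordinates were not combined with those of rn6.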

Additional observations from a re-analysis of the deposited data

Results flagged for a closer look

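The 13 members that are always described were looked at in each of 8 groups, 104 in all, for a library far from the rest of its group on the log2 CPM scale. For a single gene, chance marks about 1 in 20 groups, and 12 of the 104 were marked. The 13 genes were read in the same livers, so their marks are not independent. The 12 therefore cannot be set against that rate. EF_RD 1, the library with 4627 CPM of skeletal muscle markers, was high for Col3a1 at 490 CPM (other EF_RD livers 274 to 291), for Col4a1 at 112 CPM (46.8 to 52.3), for Col4a2 at 73.8 CPM (37.5 to 41.6) and for Vim at 108 CPM (20.6 to 25.1). LPS_EF 7, with 65.4 CPM of neutrophil and monocyte markers, was low for Col4a1 at 81.5 CPM (other LPS_EF livers 202 to 224), for Col4a2 at 60.3 CPM (122 to 134) and for Pdgfrb at 16.9 CPM (40.1 to 55.8). EF 1 was high for Dcn at 56.3 CPM (7.65 to 13.2) and for Acta2 at 29.8 CPM (3.98 to 6.97).

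In the EF_PF group, EF_PF 1 was low for Fn1 at 2137 CPM, where the other livers were at 2742 to 2994 CPM, and for Col1a2 at 0.124 CPM (0.315 to 0.396). EF_PF 6 was low for Col4a2 at 30.6 CPM (36.5 to 39.1). The part of tissue markers in these values was not tested.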

How the results depend on the processing

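The 4 LPS comparisons kept their direction, with more members higher than lower, under each alternative. The numbers of all genes called in the same fits are not given beside the member counts below. Changes in those counts are therefore not shown to be particular to the members. LPS against control went from 19 members called to 12 with a replicate block, with LPS_EF_PF against EF_PF at 27, LPS_EF against EF at 23 and LPS_EF_RD against EF_RD at 11 under the block. A check of correlations gave little sign that the numbers pair the livers. Over 88 same-number pairs the mean correlation of deviations was 0.0283, against -0.00353 for pairs of other numbers. Of 37 livers, 5 matched their own number best. Pairing itself was not tested. LPS_EF_RD against EF_RD went from 14 to 8 when only the groups compared were fitted, to 23 without EF 1, EF_RD 1, LPS_EF 7 and LPS_EF_RD 6, and to 24 without control 5, LPS 3 and EF_RD 1. EF_RD against control went from 1 to 2 with total-count scaling, and both it and EF_RD against EF went to 0 with the block, with only the groups compared, and in the 3 fits that left out sets of libraries with EF_RD 1. Leaving out 1 library at a time gave 15 to 25 members in LPS against control, 14 to 22 in LPS_EF against EF, 24 to 26 in LPS_EF_PF against EF_PF, 8 (without LPS_EF_RD 2) to 21 (without EF_RD 1) in LPS_EF_RD against EF_RD, 0 to 2 in EF_RD against control and 0 to 4 in EF_RD against EF. EF 1, LPS_EF 7 and LPS_EF_RD 6 were picked for inflammation genes that went against their group, so counts of LPS calls without them follow in part from that choice. The share of all called genes that were higher went from 50.6%, 50.2%, 52.6% and 54.4% to 72.0%, 67.7%, 78.5% and 64.7% with total-count scaling. Signs turned for Dcn, Acta2, Des, Col1a1 and Col17a1, and the cause was not tested. In LPS_EF_RD against EF_RD, the fits without LPS 3 and EF_RD 1, without EF 1 and its set, and without control 5 and its set gave Des 1.37, 1.53 and 1.38, Dcn 0.38, 0.53 and 0.38, and Acta2 0.73, 0.93 and 0.73. Without LPS 3 and EF_RD 1, Dcn in LPS against control was -0.67. Col17a1 in EF_RD against control was -0.048 without LPS 3 and EF_RD 1 and -0.0535 without EF 1 and its set, and Des in EF_RD against EF was -0.40 without LPS 3 and EF_RD 1 and without control 5 and its set. With 1 library left out, Dcn ran from -0.67 to 1.09 in LPS against control, from -0.30 to 1.03 in LPS_EF against EF and from -2.01 to 0.40 in LPS_EF_RD against EF_RD, and Acta2 from -0.12 to 1.01 and from -0.44 to 0.74 in the last 2. In LPS_EF_RD against EF_RD, Des ran from -2.78 to 1.39 and Col1a1 from -0.31 to 1.70. Col17a1 in EF_RD against control ran from -0.0565 to 5.38 and Des in EF_RD against EF from -0.41 to 3.97.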
